A study of Mus musculus with 24 samples.

Results

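The genes of 9 inhibitory checkpoint receptors other than Lag3 were followed in the liver-resident invariant natural killer T (LiNKT) cells of NOD mice: Ctla4, Pdcd1, Tigit, Havcr2, Vsir, Cd200, Cd160, Btla and Cd96. They were taken as a named list, 9 of the 55401 genes in the count tables, and all 9 had at least 10 summed reads. LiNKT cells are the αGalCer/CD1d tetramer+ T cells of the liver, which recognise the glycolipid αGalCer on the antigen-presenting molecule CD1d. The NOD/ShiLtJ strain, shared by both groups, develops autoimmune diabetes spontaneously. Untreated mice were compared with mice given αGalCer/CD1d-NPs, iron oxide nanoparticles coated with mouse CD1d that carries αGalCer, injected intravenously at 20 µg of protein 2 times a week for 5 weeks from 8 to 10 weeks of age. The methods call the controls of these assays untreated. They also state in general that controls got nothing or Cys-NPs matched for iron, and a figure legend calls the multiome controls vehicle-treated. Single cells for SmartSeq2, a plate-based full-length RNA method, came from 3 male mice of 13 to 15 weeks in each group. Nuclei for the 10X multiome came from 5 untreated and 4 treated male mice of 13 to 15 weeks. DNA for whole genome bisulfite sequencing came from 7 untreated female mice of 17 weeks and 4 treated mice of 16 weeks, whose sex is not given in the sources used here, so that age, and sex if it differed, cannot be told apart from treatment in the methylation values.

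Checkpoint receptors are membrane proteins that lower the response of a T cell when they meet a ligand on another cell. Most are induced by antigen receptor signals, compete with an activating receptor for the same ligand or recruit phosphatases to the receptor complex, and they are found together on T cells that have met antigen many times, including exhausted and type 1 regulatory (TR1) cells. Liver iNKT cells belong mainly to a group that resembles T helper 1 cells, and they carry several natural killer receptors at rest.

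The SmartSeq2 tables gave 1 library of counts per group. Cells that carry a sub-cluster label were used, 273 untreated and 251 treated ones of 284 and 282 in the tables, and 0 cell names occurred in both. They held 172559865 and 149084200 counts, with a median per cell of 635257 reads and 861 genes in the untreated group and of 599896 reads and 850 genes in the treated group. Mice of a group are not separated, so each group is 1 sample, no test between groups was possible, and intervals (exact Poisson for sums, exact binomial for shares, 95%) cover counting error only. Where no cell was positive, the limit printed as allowed is instead the share that 3 cells would make, which is below the upper end of the exact interval. Folds are then set against 3 cells or 3 reads over the group. A positive cell can hold many reads, so a fold against 3 reads is not a strict lower bound. Most cells carried T cell genes, with Cd3e in 81.3% of untreated and 79.7% of treated cells and Trbc2 in 81.0% and 84.1%. Other identity genes were read in fewer treated cells. Il2rb was read in 82.1% and 62.2%, Cxcr6 in 75.5% and 45.4%, Tbx21 in 29.7% and 22.3%, and Cd44 in 18.3% and 14.3%. Zbtb16, the gene of the iNKT factor PLZF, was read in 4.40% and 6.37%. The genes of the T and iNKT identity list were all detected in both groups, and the untreated and treated sums over them were 8505 and 5339 counts-per-million (CPM), a gap that was mostly that of Cxcr6, a receptor that holds iNKT cells in the liver (4638 and 2025 CPM). Among 251 treated cells, 9 had no read on any of these 7 genes, and 6 of the 9 had reads on a macrophage or dendritic cell marker. In all, 12 treated and 2 untreated cells had reads on at least 1 of the 5 macrophage and dendritic cell markers. Lyz2 was read in 11 treated cells and Csf1r in 9. The sum of the markers was 0.0116 CPM without and 1793 CPM with treatment. The part of the cells with these markers in the results was tested only by leaving them out. Hepatocyte markers (4 genes) were at 0 in untreated cells and at 82.3 CPM, in 3 cells, in treated cells. Of the B cell markers, Cd79a gave 0.0116 and 0 CPM (1 and 0 cells), and Cd79b and Ms4a1 were at 0 in both groups. The 4 endothelial markers gave 1.05 and 24.4 CPM (6 and 9 cells), with Cdh5 and Kdr at 0 in both, and the 2 CD8 T cell markers 28.04 and 55.9 CPM (3 and 5 cells), with Cd8b1 at 0 in both. The 3 regulatory T cell markers gave 152 and 126 CPM (59 and 45 cells), with Foxp3, their defining gene, in 0 untreated cells and 1 treated cell. The others differed in opposite directions, with Ikzf2, the gene of Helios, in 4.03% of untreated and 13.1% of treated cells and Il2ra, the gene of CD25, in 18.7% and 5.98% (95.6 and 32.1 CPM). Any of the 3 was read in 21.6% of untreated and 17.9% of treated cells, and, over both groups, in 43.8% of cells with Ctla4, 41.9% with Tigit, 34.5% with Pdcd1, 27.1% with Vsir and 12.5% with Cd160, and their part in the results was not tested. Results are given below without the 3 untreated and 15 treated cells that had a read on a macrophage and dendritic cell, B cell or hepatocyte marker where these cells mattered.

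Pdcd1, Tigit, Vsir and Ctla4 were read in more treated than untreated cells, Cd96 in fewer, and Havcr2 and Cd200 were at the edge of detection. Summed CPM were at least 2-fold higher in treated cells for 5 of the 9 genes, where 20.1% of the 15052 genes tested were, and at least 2-fold lower for 1, where 17.2% were. The share of cells with a read is less swayed by single cells. Its interval lay above that of untreated cells for 4 of the 9 (Ctla4, Pdcd1, Tigit and Vsir), against 0.771% of all genes tested, and below it for 1 (Cd96), against 0.764%. Without the 3 untreated and 15 treated cells with macrophage and dendritic cell, B cell or hepatocyte marker reads, 4 of the 9 were at least 2-fold higher by CPM, Havcr2 being the one no longer read. The median log2 ratio of treated to untreated CPM over the 9 genes, with 1 CPM added to each value, was 2.49, beside 0.02 for all genes tested. It was 4.47 when the genes absent from untreated cells were set against 3 reads without the added CPM. The median over all genes was not computed in that way, so 4.47 has no background here. Without the same cells these medians were 0.60 and 2.76.

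**Figure D1:**
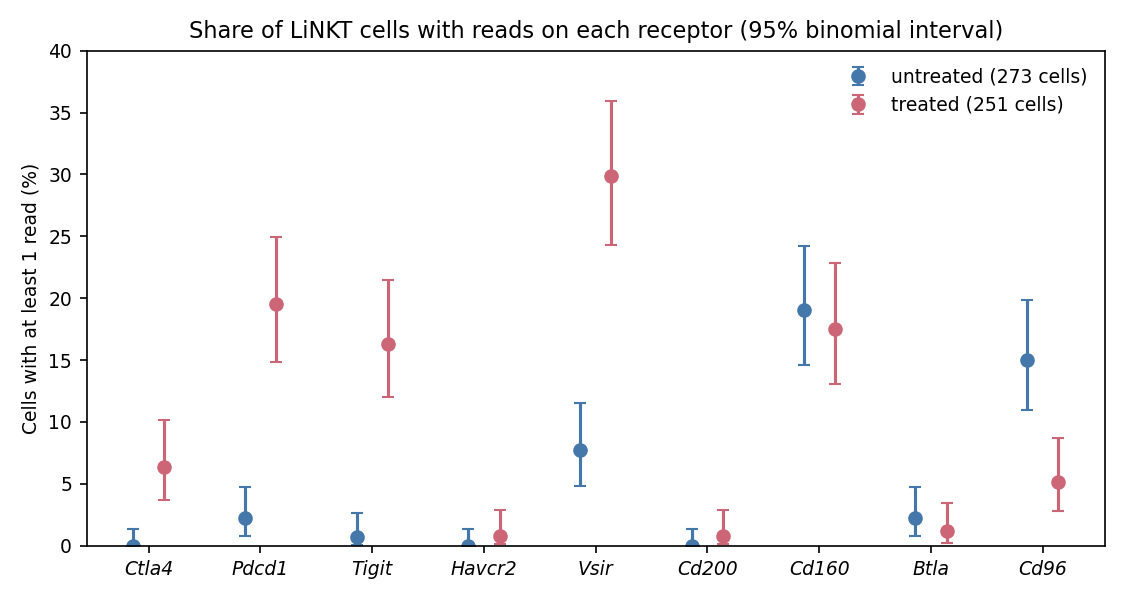
Share of cells with at least 1 read on each of the 9 receptor genes, in percent (y axis), in 273 untreated and 251 treated LiNKT cells, with exact 95% binomial intervals. Ctla4, Pdcd1, Tigit and Vsir stand higher in treated cells, Cd96 stands lower, and the intervals of Havcr2, Cd200, Cd160 and Btla overlap.

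Pdcd1 encodes PD-1, the receptor of PD-L1 and PD-L2, which recruits the phosphatase SHP-2 to the antigen receptor. It was read in 6 of 273 untreated cells (2.20%, interval 0.811 to 4.72%) and in 49 of 251 treated cells (19.5%, 14.8 to 25.0%). Summed over cells, Pdcd1 stood at 34.8 CPM (33.9 to 35.7) without and at 794 CPM (790 to 799) with treatment, a 22.8-fold higher level. The largest part of the untreated reads (53.3%) came from 1 cell, whereas the top treated cell held 6.22%. The positive treated cells held 3 to 7368 reads, with a median of 2057. The 6 positive untreated cells held 2 to 3198, and 3 of them held 12 reads together. The cell names hold a number, 1 or 2, which was read here as the sequencing lane, although no label states this. The share was 2.17% against 18.5% in lane 1 (28.4 and 842 CPM) and 2.25% against 21.8% in lane 2 (46.7 and 689 CPM).

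Tigit encodes a receptor for CD155 (Pvr), for which it competes with the activating receptor CD226. It was read in 2 untreated cells (0.733%, 0.0888 to 2.62%) and in 41 treated cells (16.3%, 12.0 to 21.5%). Its level was 69.4-fold higher with treatment, at 4.94 and 342 CPM, with 91.4% of the untreated reads in 1 of the 2 cells. Both untreated cells were in lane 2, and the lanes gave shares of 0% against 15.0% (lane 1, where 0 of 184 cells allows up to 1.63%) and of 2.25% against 19.2% (lane 2). The size of the ratio rests on these few cells, since the CPM were 0 and 323 in lane 1 and 14.3 and 385 in lane 2.

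Vsir encodes VISTA, a receptor and ligand of the B7 family that binds PSGL-1 (Selplg) at acid pH and is abundant on myeloid cells as well as on naive T cells. It was the most widely read of the 9 in treated cells, in 75 of 251 (29.9%, 24.3 to 36.0%), against 21 of 273 untreated cells (7.69%, 4.82 to 11.5%). The level was 162 CPM and 1074 CPM, 6.65-fold higher in treated cells, and the lanes gave shares of 6.52% against 30.6% (121 and 1123 CPM) and of 10.1% against 28.2% (238 and 968 CPM). Of the 75 treated cells, 5 also had reads on a macrophage or dendritic cell marker. Without the cells with macrophage and dendritic cell, B cell or hepatocyte marker reads, the share was 29.7% of 236 treated and 7.78% of 270 untreated cells, and the treated level was 1109 CPM.

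Ctla4 encodes the receptor that outcompetes CD28 for CD80 and CD86. It was read in 0 of 273 untreated cells, which allows a share of up to 1.099%, and in 16 of 251 treated cells (6.37%, 3.69 to 10.1%). The treated share was 5.801-fold the share that 3 untreated cells would make. This is not a lower bound, since the exact interval of the untreated share reaches 1.34%. The reads were few, with a median of 9 and a maximum of 152 in a positive cell, and 4.62 CPM in all. This was 266-fold above the level that 3 reads in the untreated group would give. That ratio is not a lower bound, since a positive cell can hold more than 3 reads. Of the 16 cells, 11 had at least 5 reads, and the share was 4.62% in lane 1 and 10.3% in lane 2, with 0 untreated cells in either.

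Cd160 encodes a natural killer receptor that binds HVEM (Tnfrsf14), the ligand it shares with BTLA. Its shares in the groups had overlapping intervals, in 52 untreated cells (19.0%, 14.6 to 24.2%) and in 44 treated cells (17.5%, 13.0 to 22.8%), at 396 and 438 CPM. Its log2 ratio was 0.15. Cd96, a receptor that shares CD155 with TIGIT and CD226, was the only one of the 9 past 2-fold in the other direction. It was read in 41 untreated cells (15.0%, 11.0 to 19.8%) and in 13 treated cells (5.18%, 2.79 to 8.69%), at 507 and 146 CPM, 3.47-fold higher in untreated cells. The share was lower in treated cells in both lanes. In lane 1 the share was 10.9% (6.77 to 16.3%) against 4.62% (2.02 to 8.91%), with intervals that overlap, and in lane 2 it was 23.6% (15.2 to 33.8%) against 6.41% (2.11 to 14.3%). The levels were 430 and 169 CPM in lane 1 and 653 and 97.2 CPM in lane 2. Btla, the other HVEM receptor, was read in 6 untreated (2.20%) and 3 treated cells (1.20%), at 26.7 and 15.0 CPM, and lane 1 (26.1 and 8.02 CPM) and lane 2 (27.9 and 30.0 CPM) differed in direction.

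Havcr2 and Cd200 were at the edge of detection. Havcr2 encodes TIM-3, a receptor of exhausted T cells and of macrophages and dendritic cells. It was read in 0 untreated and 2 treated cells (0.797%, under the 1.20% that 3 cells would make), with 94.1% of its 1653 reads in 1 cell. Both cells also held reads on a macrophage or dendritic cell marker, and without cells of that kind Havcr2 was at 0 in both groups. Cd200, a ligand for the myeloid receptor CD200R and a surface marker of follicular helper and TR1 cells, was read in 0 untreated and 2 treated cells with 7 and 65 reads. This depended on the cells used. With the cells that carry no sub-cluster label included, Cd200 was read in 7 of 282 treated cells (2.48%, 1.00 to 5.05%) with 3820 reads (23.0 CPM) and in 0 of 284 untreated cells, its log2 ratio was 4.59 in place of 0.57, and 6 of the 9 genes were then at least 2-fold higher. For both genes the intervals of the shares overlap between the groups in either set of cells.

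Per kilobase of exon, the order of the levels differed between the groups. In untreated cells Cd96 (232 CPM per kb) and Cd160 (150 CPM per kb) led, followed by Vsir (32.2), Pdcd1 (18.0), Btla (7.87) and Tigit (5.37). In treated cells Pdcd1 (411 CPM per kb) and Tigit (373) led, followed by Vsir (214), Cd160 (166) and Cd96 (67.0), and Btla (4.40), Havcr2 (4.07), Ctla4 (1.98) and Cd200 (0.145) were low. The ranks of Pdcd1, Btla and Tigit among untreated cells, and those of Btla, Havcr2 and Cd200 among treated cells, rest on 6 cells or fewer.

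Sub-cluster 5, which held treated cells only and is labelled TR1-like, had the highest shares of Vsir, Pdcd1, Tigit and Ctla4, and also of Btla and Cd200, which were read there in 2 cells and 1 cell. The sub-clusters were made from the expression of these cells, so their shares are a description. Treated cells had a median of 967 genes in sub-cluster 5, 842 in sub-cluster 4 and 777 in sub-cluster 2. In the 57 cells of sub-cluster 5, Vsir was read in 39 (68.4%, 54.8 to 80.1%), Pdcd1 in 27 (47.4%, 34.0 to 61.0%), Tigit in 23 (40.4%, 27.6 to 54.2%) and Ctla4 in 11 (19.3%, 10.0 to 31.9%). Lag3 was read in 42 of them (73.7%), and the cytokine genes Il10 and Il21 in 25 (43.9%) and 21 (36.8%). Cd160 was read in 0 of the 57, which allows up to 5.26%. None of Vsir, Pdcd1, Tigit and Ctla4 was confined to sub-cluster 5, and Ctla4 was also read in 4 of 61 treated cells of sub-cluster 2 (6.56%) and in 1 of 133 of sub-cluster 4 (0.752%). In sub-cluster 2, which exists in both groups, Pdcd1 was read in 3 of 228 untreated cells (1.32%, 0.272 to 3.80%) and in 12 of 61 treated cells (19.7%, 10.6 to 31.8%). These 3 untreated cells were those with few reads, and the other 5987 untreated reads of Pdcd1 were in 3 cells of sub-cluster 4. In the cells of sub-cluster 2, Vsir stood at 8.33% (5.09 to 12.7%) and 26.2% (15.8 to 39.1%), and Tigit at 0.439% (0.0111 to 2.42%) and 9.84% (3.70 to 20.2%). Treated cells of sub-cluster 2 also held reads on Lag3 (7 of 61), Il10 (6) and Il21 (4), each read in 0 of 228 untreated ones. In sub-cluster 4, also present in both groups, the intervals overlapped for Pdcd1, Vsir and Tigit. Pdcd1 stood there at 6.98% and 7.52%, Vsir at 4.65% and 15.0%, and Tigit at 2.33% and 9.02%. Sub-cluster 4 was where Cd160 was read most, in 28 of 43 untreated cells (65.1%, 49.1 to 79.0%) and in 39 of 133 treated cells (29.3%, 21.8 to 37.8%). The overall shares of Cd160 were thus close although those within sub-cluster 4 did not overlap, since sub-cluster 4 held 43 of 273 untreated and 133 of 251 treated cells. Cd96 was read in 36 of 228 untreated cells of sub-cluster 2 (15.8%) and in 2 of 61 treated ones (3.28%), and in 5 of 43 (11.6%) and 8 of 133 (6.02%) cells of sub-cluster 4.

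**Figure D2:**
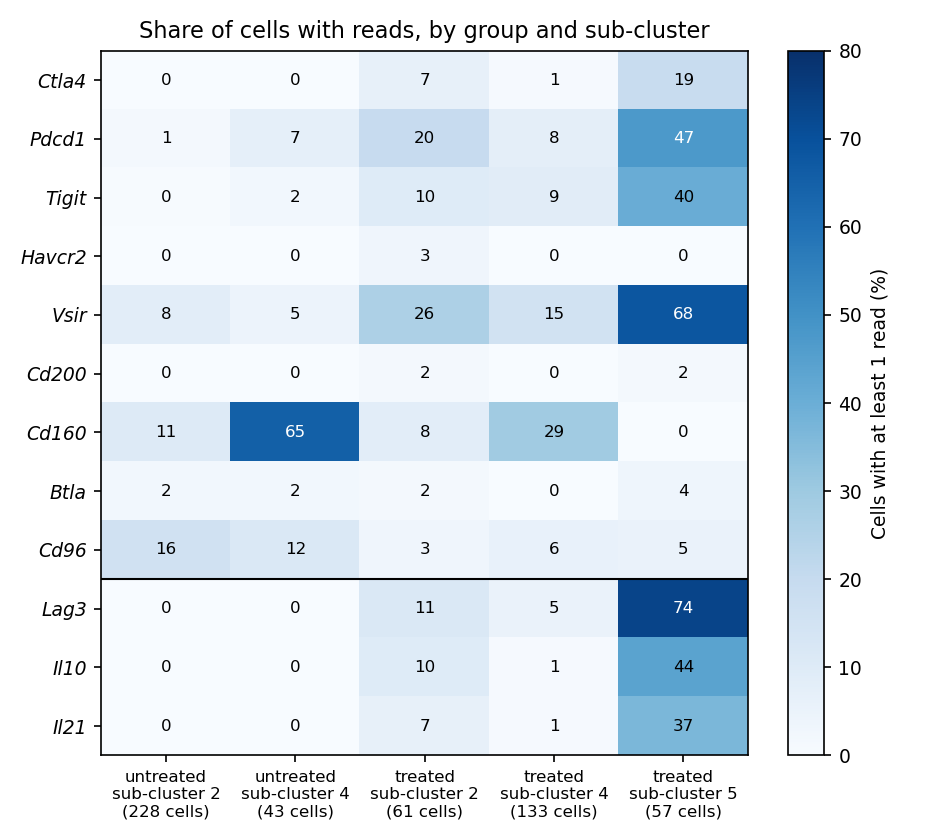
Share of cells with at least 1 read, in percent (colour and number), for the 9 receptor genes and, under the line, Lag3, Il10 and Il21, in the sub-clusters of each group that hold more than 2 cells. Sub-cluster 5 of the treated group is darkest for Vsir, Pdcd1, Tigit and Lag3 and at 0 for Cd160, which is darkest in sub-cluster 4 of the untreated group.

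More receptors were read per cell in the treated group. At least 1 of the 9 was read in 105 untreated cells (38.5%, 32.7 to 44.5%) and in 153 treated cells (61.0%, 54.6 to 67.0%), and at least 2 in 19 untreated cells (6.96%, 4.24 to 10.7%) and 66 treated cells (26.3%, 20.96 to 32.2%). At least 3 were read in 4 untreated (1.47%) and 23 treated cells (9.16%), and 4, the most in any cell, in 0 and 3. In the treated group, cells with more receptors were also deeper and held more genes. Treated cells with 0, 1, 2 and 3 receptors had a median of 569464, 598058, 629800 and 693928 reads and of 792, 856, 938 and 1021 genes. In untreated cells the genes went the same way (837, 876, 945 and 1287), whereas the reads did not increase beyond 1 receptor (624816, 679770, 650536 and 652867). When each cell was thinned to 200000 reads, at least 2 receptors were read in 25.5% of 243 treated and 6.74% of 267 untreated cells. In untreated cells the receptors were mostly read alone, Cd160 in 40 cells, Cd96 in 30 and Vsir in 12. In treated cells the most frequent combination of 3 was Pdcd1, Tigit and Vsir, in 9 cells, which was found in no untreated cell.

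**Figure D3:**
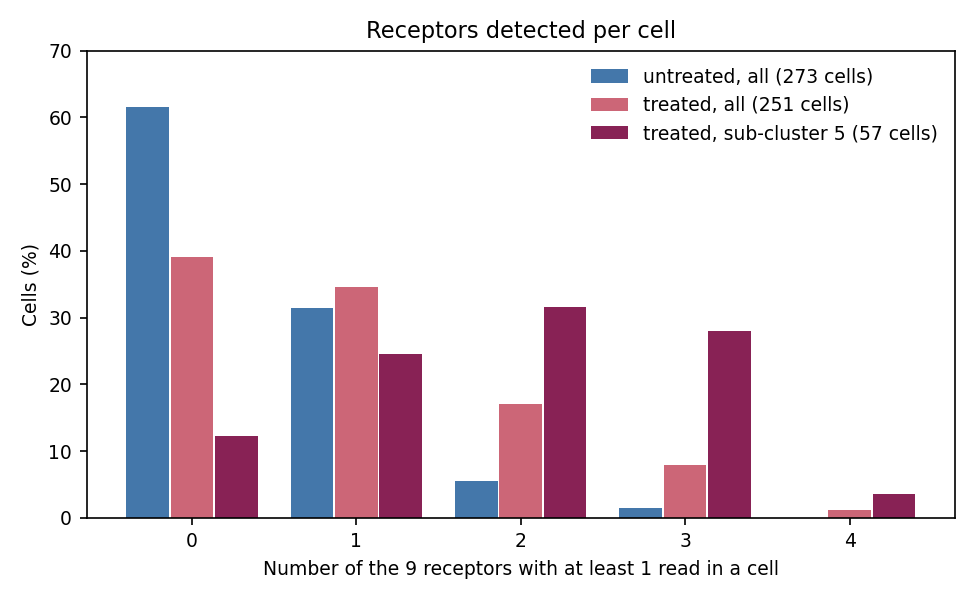
Number of the 9 receptor genes with at least 1 read in a cell (x axis) and the percent of cells with that number (y axis), for all untreated cells, all treated cells and the treated cells of sub-cluster 5. Treated cells have fewer cells with 0 and more with 2 and 3 receptors, and most cells of sub-cluster 5 have 1 to 3.

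Among treated cells, Pdcd1, Tigit and Vsir were read more often in cells that held another of the 3, and Lag3 more often in cells that held one of them or Ctla4. Tigit was read in 17 of 49 cells with Pdcd1 (34.7%, 21.7 to 49.6%) and in 24 of 202 without it (11.9%, 7.76 to 17.2%). Vsir was read in 24 of the 49 (49.0%) and in 51 of the 202 (25.2%). Lag3 was read in 12 of 16 cells with Ctla4 (75.0%, 47.6 to 92.7%) and 44 of 235 without (18.7%, 13.9 to 24.3%), in 24 of 41 cells with Tigit (58.5%) and 32 of 210 without (15.2%), and in 35 of 75 cells with Vsir (46.7%) and 21 of 176 without (11.9%). Il10, the cytokine of TR1 cells, was read in 18 of 49 cells with Pdcd1 (36.7%, 23.4 to 51.7%) and 14 of 202 without (6.93%, 3.84 to 11.4%). For Cd160 the order was the other way, with Lag3 in 3 of 44 cells (6.82%) against 53 of 207 (25.6%) and Il10 in 0 of 44, which allows up to 6.82%, against 32 of 207 (15.5%). Within sub-cluster 5, where Cd160 was not read, intervals overlapped for the pairs that follow. Tigit was read there in 12 of 27 cells with Pdcd1 (44.4%, 25.5 to 64.7%) and 11 of 30 without (36.7%, 19.9 to 56.1%), and Lag3 in 11 of 11 cells with Ctla4 (71.5% or more) and 31 of 46 without (67.4%, 52.0 to 80.5%). No test was made of these differences.

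The genes whose level varied most alike over the 251 treated cells were ranked by Spearman correlation of log2(CPM + 1), among 2058 genes read in at least 10% of these cells, as a description of 1 library in which all points share depth. For Pdcd1 they were Ccnd2 (rho of 0.353), a cyclin, Izumo1r (0.348), which encodes folate receptor 4, and Il10 (0.348). For Tigit they were Lag3 (0.407), Icos (0.353), a costimulatory receptor, and Maf (0.345), a transcription factor of interleukin-10 producing T cells. For Vsir the same 3 genes came first, Lag3 (0.373), Icos (0.331) and Maf (0.314). For Cd160 they were Cd7 (0.366), Gzmb (0.276), which encodes granzyme B, and Xcl1 (0.273), a chemokine gene of cytotoxic cells.

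Of 13 genes of ligands and counter-receptors, 9 could be compared, and 2 were at least 2-fold higher and 2 lower in treated cells, near the shares over all genes (20.1% and 17.2%), with a median log2 ratio of -0.14. These 4, named after their values were seen, were each read in under 5% of cells. Cd274, the gene of PD-L1, stood at 6.24 and 14.2 CPM (4 and 10 cells) and Cd86 at 0.058 and 2.85 CPM (2 cells in each group), whereas Pvr, the CD155 shared by TIGIT, CD96 and CD226, stood at 15.0 and 0.0268 CPM (9 and 1 cells) and Cd200r1 at 58.3 and 11.5 CPM (12 and 4 cells). Selplg, the PSGL-1 that VISTA binds, was read in most cells, 63.4% of untreated and 54.2% of treated, at 1866 and 1705 CPM. Hmgb1 and Lgals9, which encode ligands of TIM-3, were read in 44.0% and 43.4% and in 23.8% and 17.1% of cells, and the other ligand genes in fewer than 5%. The opposing activating receptors were within 2-fold (0 of 3 past it). Icos stood at 16.5 and 32.4 CPM (7.69% and 16.7% of cells), Cd28 at 49.5 and 56.7 CPM, and Cd226 at 368 and 222 CPM (27.8% and 18.7% of cells). Of the CD155 receptors, Tigit was thus higher and Cd96 lower in treated cells past 2-fold, and Cd226 was lower within it.

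A list of 8 genes held signalling proteins of the tails of these receptors or of their counter-receptors. Of these genes, 1 was at least 2-fold higher (Dok1, in 3 and 11 cells) and 0 were lower, where 20.1% and 17.2% of all genes were. Their median log2 ratio was 0.16. Ptpn6, the gene of the phosphatase SHP-1, was read in 20.1% and 22.7% of cells, and Ptpn11, that of SHP-2, in 7.33% and 2.39%. Of 11 transcription factor genes of chronic antigen receptor stimulation that could be compared, 4 were at least 2-fold higher (Maf, Tox, Irf4 and Batf) and 2 lower (Nfatc2, in 17 and 10 cells, and Nr4a3, in 21 and 6), where 20.1% and 17.2% of all genes were, and the median log2 ratio was 0.90. Irf4 was read in 3 and 7 cells. Maf was read in 6.96% of untreated and 29.5% of treated cells (28.6 and 123 CPM), and Batf in 7.69% and 16.7% (100.1 and 224 CPM). Tox, a factor of exhausted T cells, was read in 2.93% and 8.37%. The TR1 genes Lag3, Il10 and Il21 were at 0 in untreated cells and at 697, 383 and 97.49 CPM in treated cells, in 56, 32 and 26 cells.

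DNA methylation was deposited as differentially methylated regions (DMRs) and as the methylated fraction of single cytosines, 1 value per group without read depth. A DMR is a run of CpG sites whose methylation differs between the groups, and here a region lower in treated cells is called hypo-methylated and one higher in them hyper-methylated. Cytosines in CpG are the usual site of methylation in mammals, and its loss at promoters and enhancers often accompanies their use. Around the 9 genes 16 DMRs lay within 50 kb, 14 hypo-methylated and 2 hyper-methylated. At least 1 hypo-methylated DMR was found for 6 of the 9, where 11.3% of 21938 protein-coding genes had one, at least 1 hyper-methylated DMR for 2 of the 9, where 6.93% had one, and none of either kind for Vsir and Cd160. Over all 2873 DMRs, 69.0% were hypo-methylated, with a median difference of -37.6 percentage points, beside -46.2 points for the 14 near these genes. Cytosines outside a CpG, over all DMRs, stood at 1.67% in untreated and 1.85% in treated cells. In bulk DNA, fewer methylated cells and less methylation per cell cannot be told apart.

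Positions are on GRCm38 (mm10), with gene extents from GENCODE M21. Ctla4 (chromosome 1, 60887000 to 60915832, plus strand) had the most, with 6 hypo-methylated DMRs and 1 hyper-methylated DMR, where 0.155% of protein-coding genes had 6 or more hypo-methylated ones. Its main start site, at 60909025, lies inside the annotated gene, and 2 of the DMRs were intronic in a longer transcript upstream of it. The first, at 60902572 to 60903097 and 5.93 kb upstream of the start site, went from 89.7% in untreated to 29.3% in treated cells (15 CpG positions). Means over its 17 listed sites were 83.5% and 32.7%, with 15 sites lower and 1 higher in treated cells. The difference of these means was 9.56 percentage points smaller, the largest such gap of the 16 DMRs. The second, at 60905735 to 60905962, went from 93.6% to 61.7%. Downstream of the start site, an intronic DMR at 60910985 to 60911510 stood at 78.0% and 32.9%, and one that holds exon sequence at 60912374 to 60913266 stood at 95.8% and 66.3%. Beyond the gene, towards the neighbouring gene Icos, DMRs at 14.5 kb (60930296 to 60930734, 81.1% and 30.1%) and 21.1 kb (60936941 to 60937217, 89.7% and 27.5%) were hypo-methylated. The latter had the largest difference of the 16, 62.2 percentage points, and all 10 of its sites were lower in treated cells (88.1% ± 18.6 and 27.5% ± 11.9, SD over sites, n = 10). The hyper-methylated DMR, at 60960564 to 60960924, lay 44.7 kb from Ctla4 but 17.003 kb from Icos, and went from 47.9% to 68.9%.

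Tigit (chromosome 16, 43648867 to 43664146, minus strand) had 4 hypo-methylated DMRs, where 0.52% of protein-coding genes had 4 or more. An intronic DMR 2.295 kb into the gene (43661580 to 43661851) went from 91.7% to 42.6%, with all 10 sites lower. A pair upstream, at 29.9 kb (43694039 to 43694428, 27 CpG positions, 63.6% and 16.3%) and 31.0 kb (43695137 to 43695394, 73.8% and 35.7%), lay in intergenic sequence, and 1 downstream at 19.8 kb (43628417 to 43629056, 72.0% and 28.9%) lay within the gene Zbtb20. Pdcd1 (chromosome 1, 94038305 to 94052553, minus strand) had 1 DMR, 0.715 kb upstream of its start site at 94053268 to 94053826. Its methylation was the lowest of the 14 hypo-methylated DMRs in both groups, at 43.7% and 8.32%, with 13 of 13 sites lower (44.2% ± 18.5 and 8.31% ± 5.22, SD over sites).

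Genes with few or no RNA reads were not without DMRs. For Havcr2 (chromosome 11, 46454935 to 46481255, plus strand) a DMR 28.5 kb downstream (46509767 to 46510197) went from 82.4% to 34.0%. The protein-coding gene nearest to this DMR was Gm12169, 14.015 kb away. For Cd200 (chromosome 16, 45382135 to 45409053, minus strand) an intronic DMR 2.09 kb from the start site (45406367 to 45406965) went from 92.1% to 74.1%, the smallest difference of the 14. For Btla (chromosome 16, 45224315 to 45257670, plus strand) 1 DMR lay at the edge of the window, 47.9 kb downstream (45305550 to 45306291), and went from 77.8% to 29.4%. Cd96 (chromosome 16, 46035657 to 46120251, minus strand) had a hyper-methylated DMR in an intron, 15.4 kb from its start site at 46104556 to 46104823. It went from 19.3% to 55.0%, and all 15 sites were higher in treated cells (20.7% ± 10.1 and 55.0% ± 18.2, SD over sites). Both hyper-methylated DMRs were among the 3 of 16 with a q-value above 0.01. Vsir (chromosome 10, 60346851 to 60372684) and Cd160 (chromosome 3, 96798763 to 96829351) had none within 50 kb, and no CpG site near them is listed, so that their methylation is not known from these tables. Just outside this limit, the DMR nearest to Vsir lay 56.1 kb upstream, in the gene Psap, and was hyper-methylated (22.7% and 56.8%), and the next one beyond Ctla4 lay 59.4 kb away and 2.49 kb from Icos (80.2% and 20.6%).

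**Figure D4:**
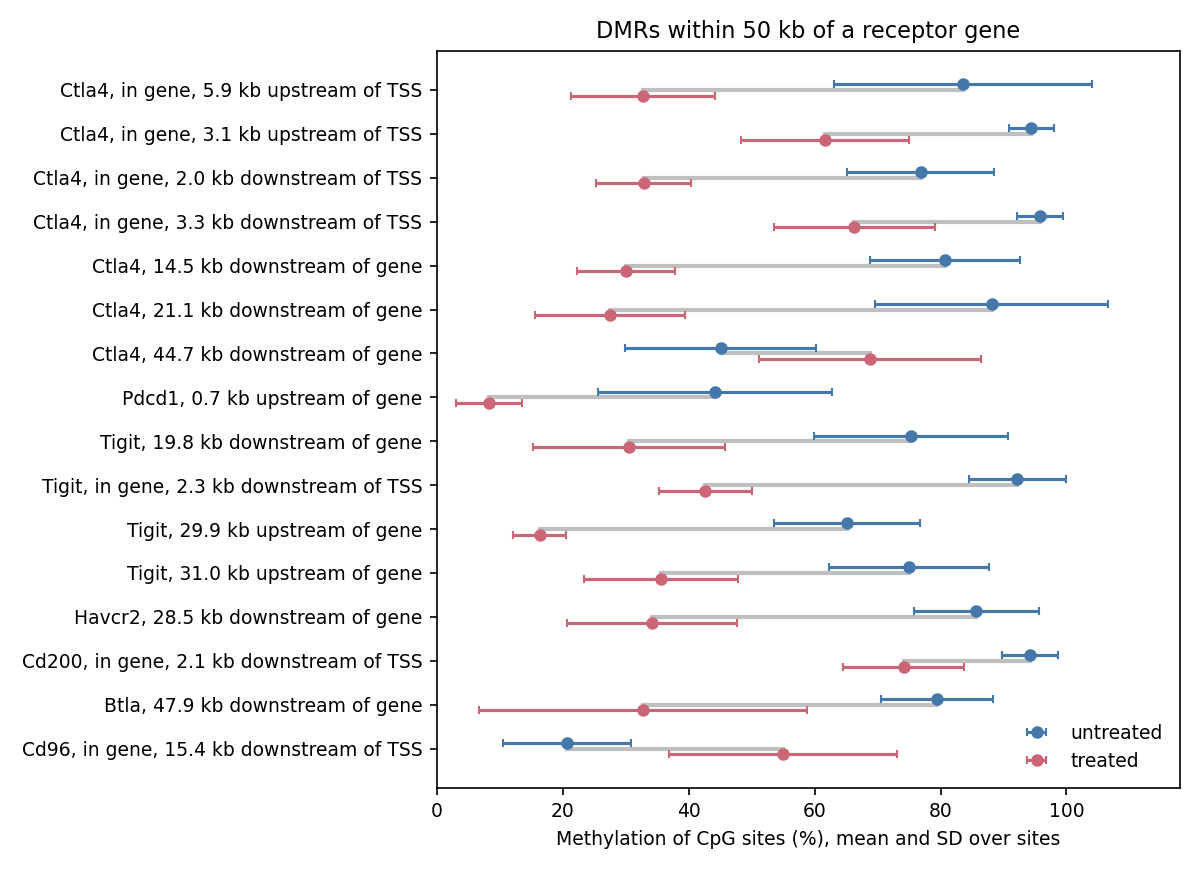
Methylation of the CpG sites, in percent (x axis), in the 16 DMRs within 50 kb of a receptor gene (rows, with the place of each), in untreated and treated cells. Points are means and bars SDs over the sites of a DMR in 1 value per group. Treated cells lie to the left in 14 rows and to the right in 2, one near Ctla4 and one in Cd96.

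A DMR of each of 4 receptors is shown as reference sequence, that of the C57BL/6J mouse and not of NOD, chosen for its size, place or direction. They are the largest difference, the one next to the Pdcd1 start site, the one inside Tigit and the one of opposite direction in Cd96. Each reads 5′ to 3′ on the forward strand of GRCm38, with CpG in capitals, whole or, for Pdcd1, as the stretch of 300 bases with the most CpGs.
Ctla4, downstream, chr1:60936941-60937217: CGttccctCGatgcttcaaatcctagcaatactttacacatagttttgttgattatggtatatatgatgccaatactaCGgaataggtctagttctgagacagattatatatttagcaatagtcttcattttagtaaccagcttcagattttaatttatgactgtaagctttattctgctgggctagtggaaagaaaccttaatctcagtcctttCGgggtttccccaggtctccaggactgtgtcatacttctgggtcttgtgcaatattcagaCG
Pdcd1, upstream, chr1:94053471-94053770: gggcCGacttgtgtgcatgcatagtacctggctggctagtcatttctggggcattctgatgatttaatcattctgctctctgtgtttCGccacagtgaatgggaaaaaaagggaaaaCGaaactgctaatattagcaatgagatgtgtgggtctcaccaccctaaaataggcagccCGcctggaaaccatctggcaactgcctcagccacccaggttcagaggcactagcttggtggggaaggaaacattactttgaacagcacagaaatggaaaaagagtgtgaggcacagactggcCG
Tigit, intron, chr16:43661580-43661851: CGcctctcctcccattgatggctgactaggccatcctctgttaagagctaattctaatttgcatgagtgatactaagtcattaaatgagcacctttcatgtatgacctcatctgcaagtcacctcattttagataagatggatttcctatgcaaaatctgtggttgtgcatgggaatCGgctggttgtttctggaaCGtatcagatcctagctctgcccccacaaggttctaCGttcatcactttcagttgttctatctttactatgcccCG
Cd96, intron, chr16:46104556-46104823: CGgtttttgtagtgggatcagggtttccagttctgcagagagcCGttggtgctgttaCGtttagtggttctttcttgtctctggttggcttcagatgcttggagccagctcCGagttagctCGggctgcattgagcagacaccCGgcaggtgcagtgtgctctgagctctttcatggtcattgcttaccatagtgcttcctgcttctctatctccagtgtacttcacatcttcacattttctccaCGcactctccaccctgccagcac
They hold 5, 5, 5 and 7 whole CpGs, where the sites of the DMRs fall in 5, 7, 5 and 8. The Pdcd1 window is part of its DMR, and the Cd96 DMR ends at the C of its last CpG. In the same windows of all 16 DMRs, both strands were searched for TGANTCA, the site of AP-1 factors, and TGGAAA, the core of the site of NFAT factors. The first was in 2 of 16 (near Havcr2 and 29.9 kb upstream of Tigit), where 22.0% of the windows of all 2873 DMRs held it. The second was in 7 of 16 (43.8%), 5 near Ctla4, 1 near Pdcd1 and 1 in Cd96, where 28.4% of all held it. In windows of the full 300 bases the shares over all DMRs were 21.9% and 29.4%. The motifs did not occur together in any of the 16. The promoters of the 9 genes, as 300 bases around the start in RefSeq, held 3 (Havcr2) to 15 (Vsir) CpGs, around the median of 7 over 32851 promoters.

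Open chromatin was read from the multiome fragments, each end of which marks an insertion of the transposase. Barcodes end in 1 or 2, and no source assigns an ending to a group, nor was one assigned here from the values. With at least 1000 fragments, 8563 barcodes of ending 1 (median of 7101 fragments) and 7235 of ending 2 (median of 8594) were kept, with 162692754 and 149624472 insertions. Both had a like share of insertions within 2 kb of a protein-coding start site (43.5% and 43.2%), and 100 barcode sequences occurred under both endings (1.17% and 1.38% of them). Each ending is 1 library, and no test was possible. The intervals take insertions as independent, although both ends of a fragment were counted and a barcode can give several fragments. They are thus too narrow even for counting error.

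Insertions within 2 kb of the start site were at least 2-fold more frequent with ending 2 for 4 of the 9 genes, where 6.87% of 18046 protein-coding genes were, and with ending 1 for 0, where 1.08% were. The 4 were Cd200 (3.28 insertions-per-million, IPM, with ending 1 and 13.9 IPM with ending 2), Havcr2 (3.52 and 14.2), Ctla4 (9.59 and 29.0) and Pdcd1 (17.6 and 35.4). Pdcd1 was just inside this limit, at 2.01-fold (interval 1.92 to 2.10), and within 500 bp of the start site its ratio was 1.44. The wider window of Pdcd1 holds its DMR, 0.715 kb upstream, and the ratio without that DMR was not computed. Tigit was below the 2-fold limit, at 1.61-fold (interval 1.56 to 1.66, 45.5 and 73.1 IPM). Vsir differed by 1.11-fold (41.0 and 45.3). Cd96 (35.1 and 26.6), Btla (26.7 and 21.7) and Cd160 (1.82 and 1.44) were lower with ending 2. Over the gene body the ratio of ending 2 to ending 1 was past 2-fold for 3 of the 9 (5.20 for Havcr2, 4.24 for Ctla4 and 3.91 for Cd200) with ending 2, where 3.25% of 19297 genes were, and for 0 with ending 1, where 0.995% were. Havcr2 and Cd200 had the widest ratios at the start site of the 9 and were each read in 2 cells by SmartSeq2, a separate set of cells. Both of the Havcr2 cells held reads on a macrophage or dendritic cell marker. Barcodes were kept by their number of fragments and not by cell type, and the part of other cell types in these ratios was not tested. Cd160 had the fewest insertions of the 9 around its annotated start site with either ending, whereas over its body it had 48.0 and 39.9 IPM.

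The gaps were wider at the DMRs. Of the 14 hypo-methylated DMRs, 13 had at least 50 insertions in all (the other had 4 and 39), and all 13 were at least 2-fold more frequent with ending 2, where 75.8% of the 1602 hypo-methylated DMRs with as many were. The DMR 21.1 kb beyond Ctla4 had 8 insertions with ending 1 and 729 with ending 2, 0.0492 and 4.87 IPM (99.1-fold, 50.02 to 230). These insertions came from 5 and 438 barcodes. The one 14.5 kb beyond Ctla4 had 27 and 901 (36.3-fold, 24.8 to 55.4), and the first in the long Ctla4 transcript had 13 and 529 (44.2-fold, 25.7 to 83.7). The intronic DMR of Tigit had 31 and 507 (17.8-fold, 12.4 to 26.5), and the one 29.9 kb upstream had the most of all 16, 367 and 1405 (4.16-fold, 3.71 to 4.68). The DMR before Pdcd1 had 341 and 1289 (4.11-fold, 3.64 to 4.64). It lies within 2 kb of the start site, so these insertions are also part of the Pdcd1 count given there. The DMR beyond Havcr2 had 2 and 257 insertions (140-fold, 38.3 to 1160). Its 2 insertions with ending 1 came from 1 barcode, so this ratio and its interval rest on that barcode. Of the 2 hyper-methylated DMRs, that of Cd96 went the other way, with 359 insertions for ending 1 and 113 for ending 2 (2.92-fold higher with ending 1), and that near Icos had 89 and 63, where 37.3% of 814 hyper-methylated DMRs were at least 2-fold higher with ending 1.

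**Figure D5:**
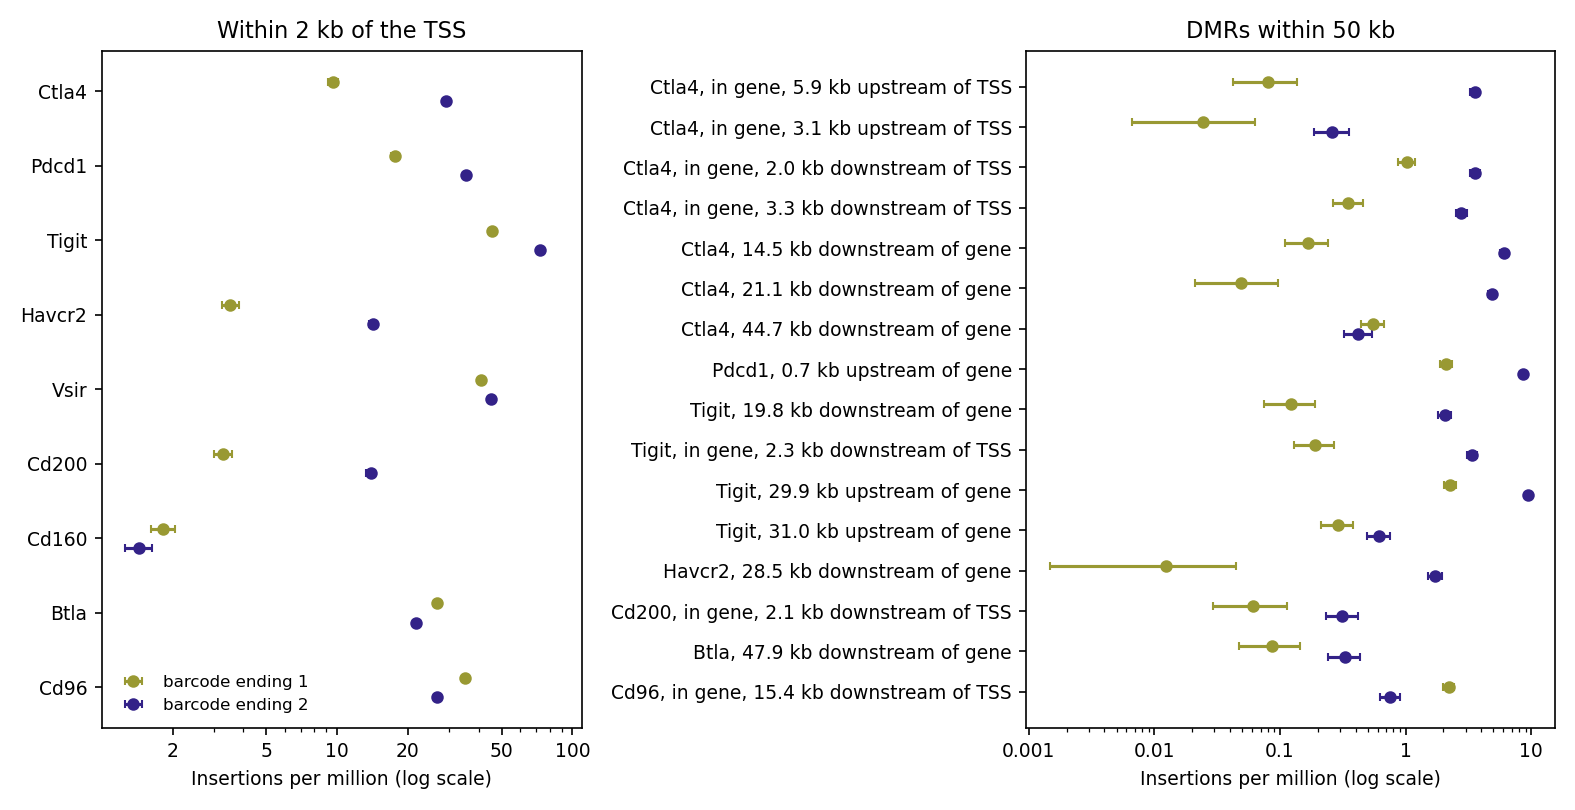
Insertions-per-million, IPM (x axes, log scale), within 2 kb of the start site of each receptor gene (left) and in each of the 16 DMRs within 50 kb (right), for the barcode endings 1 and 2, which are not assigned to a treatment, with exact 95% Poisson intervals. The intervals take insertions as independent. Ending 2 is higher for the start sites of Ctla4, Pdcd1, Tigit, Havcr2 and Cd200, close for Vsir, and higher for all hypo-methylated DMRs, and lower in the DMR of Cd96.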

How the data were processed

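LiNKT cells of untreated and αGalCer/CD1d-NP-treated NOD/ShiLtJ mice were profiled by SmartSeq2, whole genome bisulfite sequencing and 10X multiome. The 10X RNA, bulk ATAC-seq and ChIP-seq data were not analysed here. The SmartSeq2 tables hold counts of reads per gene and cell that the authors made with STAR on GRCm38, without molecular identifiers, so intervals cover counting error only. Of the gene IDs, 98.1% were matched to a name. The methylation tables, as deposited, hold the methylated fraction of the reads on single cytosines in each group, nearly all of them inside DMRs (57738 CpG sites inside and 637 outside), after BSMAP alignment to mm10 and removal of duplicates, and DMRs that the authors called with metilene. The deposited q-value of each DMR was used only as a limit, and the column with the authors' own differences was not used. The methods state 6 replicates, but 1 value per group was given, without depth. Fragment intervals were deposited from Cell Ranger ARC, aligned with BWA-MEM, deduplicated and with both samples in 1 file. Reads were aligned to the C57BL/6J genome, whereas the mice are NOD, and the effect of this was not tested.

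Cells with a sub-cluster in the supplementary list were used (label only). For each group the reads of all cells were added up per gene and expressed as CPM. Log2 ratios had a prior of 1 CPM, and genes with at least 10 summed counts were compared. A cell was positive with at least 1 read. Exact Poisson and Clopper-Pearson 95% intervals were computed with scipy 1.17.1 in Python 3.11.15. Each group is 1 sample in each assay, so no test between groups was made. DMRs within 50 kb of the gene were taken from GENCODE M21 positions. Insertions were both ends of each fragment, for barcodes with at least 1000 fragments. No doublet caller was run, and barcodes of up to 526811 fragments were kept. The members, marker lists and alternatives were chosen with earlier results of these data known. Named genes were the 9 members, list genes that were past 2-fold and read in 10% or more of untreated or of treated cells, and the 3 genes most like each member read in at least 10% of treated cells. Any other list gene was named after its values were seen. The alternatives were other cells, scalings (TMM in edgeR 4.0.16, R 4.3.3), priors, lanes, detection limits, thinning, distances, q limits and promoter widths. Leaving out cells with macrophage and dendritic cell, B cell or hepatocyte marker reads was added after seeing the data. The scripts were tested on simulated data.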

Additional observations from a re-analysis of the deposited data

How the results depend on the processing

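No paired analysis was possible because replicate numbers are given only for bulk ATAC-seq samples, which were not analysed here, and the other assays have 1 sample per group. Of 58 summary counts and shares recomputed under the alternatives, 52 stayed within 1.5 times the main value. In lane 1, 2 of the 9 receptors (Btla and Cd96) were at least 2-fold lower in treated cells, against 1 over both lanes, and 0 had a share below that of untreated cells without overlap, against 1. With a q-value of at most 0.01, 0 hyper-methylated DMRs were left near the receptors, against 2. Within 20 kb of the genes, 9 hypo-methylated and 1 hyper-methylated DMRs were found, against 14 and 2 within 50 kb, and within 100 kb 4 were hyper-methylated. Of 198 values of single receptors, 39 moved, which means by 0.1 or more on the log2 scale for ratios and out of the interval of the main value for shares. No receptor past 2-fold changed direction, but in lane 2 the log2 ratios of Cd160 (-0.26) and Btla (0.10) had another sign than over both lanes. The ratio of Pdcd1 insertions at the start site was 1.44 within 500 bp. No library could be left out, since each group has 1, and the lanes are the only split.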
